A study of Nematostella vectensis with 27 samples.

Results

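The regions described here were 4799 accessible chromatin peaks that lay deep inside the very long genes of the sea anemone Nematostella vectensis, out of 112728 peaks in the whole list (4.26%). The members were chosen by their positions: each was centred inside the span of a protein-coding gene of 50 kb or more, lay over 2 kb from either end of any protein-coding gene, and was outside dense chains of 15 or more peaks whose starts followed each other within 1000 bp. Of 19206 protein-coding genes on the 15 chromosomes, 286 (1.49%) were that long, with a median span of 65.2 kb against 6.18 kb for all protein-coding genes. Their spans held 6588 peaks. Of these, 1593 lay within 2 kb of a gene end and a further 196 belonged to 14 dense chains, which left the 4799 members in 284 of the 286 genes.

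An accessible region is a short stretch of chromatin that the Tn5 transposase can enter in nuclei, and such regions include promoters and distal elements that regulate transcription. A long animal gene owes most of its span to introns, and introns are known to hold regulatory elements, some of which act on a gene other than their host. Internal promoters of shorter transcripts and non-coding RNA genes can lie there as well. In many animals the longest genes are often genes of the nervous system, but the gene table used here gives numbered names without products, so no function is stated for any gene below.

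The list was deposited for the whole series of single-cell libraries of whole gastrulae, sorted neurons and whole adults. Of 25 ATAC libraries, 2 came from gastrulae collected 26 hours after fertilization (1 fixed and 1 fresh, each from 300 pooled embryos). A further 5 came from neurons sorted from NvElav1::mOrange transgenic polyps, whose fluorescence marks elav+ cells (2 fixed and 3 fresh). The other 18 came from adults, with 2 to 4 polyps pooled for the single-assay libraries (16 fixed and 1 fresh) and 1 fresh multiome library. Fixation of gastrulae and adults used 0.1% formaldehyde. The series also has 2 RNA libraries from adults, which were not analysed here. The list names no library, cell type, score or strand, so the depth behind each peak is unknown, no comparison between gastrulae, neurons and adults could be made, and the number of cells in which a peak was open cannot be told.

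With 1 list there are no replicates and no test. The SD between the 15 chromosomes stands for the spread, with the number of chromosomes that show a direction beside it. That spread says nothing about how animals or libraries vary. Members were set beside the peaks that met the same distance and chain conditions inside genes under 50 kb (29273 peaks) and outside protein-coding genes (10320 peaks, called intergenic here). No genome sequence of the assembly was used, so no bases are printed. Gene positions are those of the RefSeq table of jaNemVect1.1.

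The interior of the long genes, meaning the sequence that met the conditions for a member, came to 17.2 Mb. Members covered 1.19 Mb of it (6.90%). Their density was 279 per Mb, against 308 per Mb in the interior of shorter genes and 191 per Mb in intergenic sequence. Per chromosome the densities were 285 ± 43.9, 310 ± 16.6 and 198 ± 48.3 peaks per Mb for long genes, shorter genes and intergenic sequence (SD, n = 15 chromosomes). The long-gene density was the higher one on 3 of 15 chromosomes when set against shorter genes, a difference of -24.8 ± 45.5 per Mb that was smaller than its spread. Set against intergenic sequence it was the higher one on 14 of 15 chromosomes, with a difference of 87.4 ± 58.0 per Mb. The long-gene density ran over a wide range, between 214 per Mb on chromosome 1 and 388 per Mb on chromosome 6.

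All members were either 250 bp long or 1 bp shorter, and the rule did not use length. Those 1 bp under 250 are called odd-length peaks here. Of the members, 2468 were odd-length (51.4%) and 2331 were 250 bp long. The share of odd-length peaks was 36.2% inside shorter genes, 43.9% in intergenic sequence and 26.5% among all other peaks of the chromosomes. What the lengths stand for in the authors' processing is not given in the sources used here, so they serve only as a mark that divides the peaks. On every one of the 15 chromosomes the share was higher in long genes than in shorter ones, by 14.7 ± 8.66 percentage points (SD, n = 15 chromosomes). Against intergenic peaks it was higher on 12 of 15 chromosomes, by 6.98 ± 7.59 points, which was within the spread. It was lowest on chromosome 6, at 34.0%, and highest on chromosome 9, at 64.2%. Dense chains bear on this share: of the 196 chain peaks left out of the long genes 5.61% were odd-length, and with them the share in long genes would be 49.6%.

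**Figure D1:**
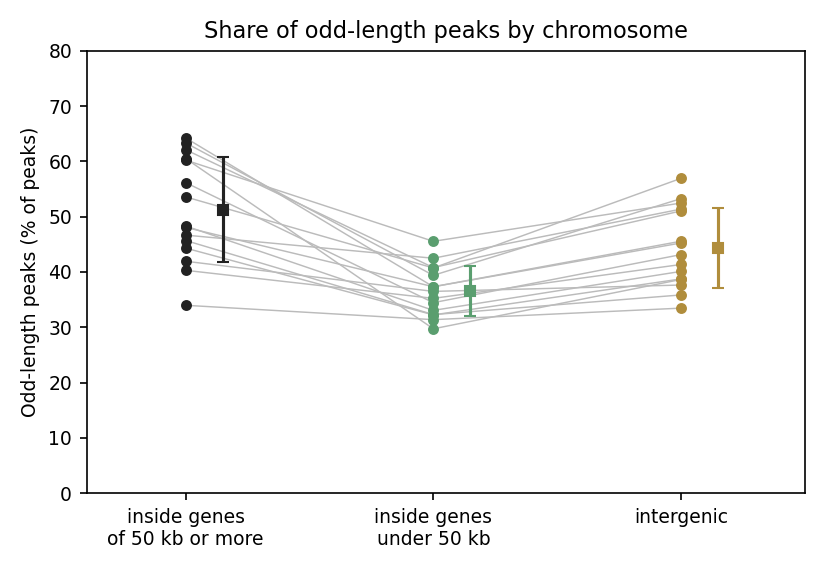
Share of odd-length peaks (vertical axis, percent of peaks) inside genes of 50 kb or more, inside genes under 50 kb and in intergenic sequence, all over 2 kb from coding gene ends. Circles are the 15 chromosomes, joined by grey lines, and squares with bars are the mean and SD: 51.3 ± 9.46%, 36.6 ± 4.54% and 44.3 ± 7.21%.

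In terms of density, the lengths went opposite ways. The odd-length peaks numbered 144 ± 20.9 per Mb in long genes and 113 ± 15.0 per Mb in shorter genes, with the long genes higher on 15 of 15 chromosomes. The 250-bp peaks numbered 141 ± 46.3 per Mb in long genes and 197 ± 18.1 per Mb in shorter genes, with the long genes higher on 1 of 15 (all SD, n = 15 chromosomes). The interior of long genes therefore differed from that of shorter genes in the make-up of its peaks more than in their total number. The higher odd-length density was not particular to genes of 50 kb or more. Pooled over chromosomes it was 140 per Mb in genes of 30 to 40 kb and 152 in genes of 40 to 50 kb, against 143 in long genes. The odd-length shares of those shorter genes were 42.5% and 43.5%, below the 51.4% of members.

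These contrasts mix positions near gene ends with positions deep inside, and long genes have more of the deep kind. Distance from the nearest protein-coding gene end was therefore held in ranges. Within the long genes, 250-bp members thinned out with depth: their density was 199 ± 50.9 per Mb at 2 to 5 kb, 154 ± 69.1 at 5 to 10 kb, 135 ± 63.8 at 10 to 20 kb and 111 ± 45.7 at 20 to 50 kb (SD, n = 15 chromosomes). The deepest of these ranges was below the shallowest on 14 of 15 chromosomes. The deeper ranges draw more on the longest genes. The 250-bp density was 160 per Mb in genes of 50 to 60 kb and 96.0 in genes of 100 kb or more. A change with depth was therefore not told apart from a difference between genes. The odd-length members had 126 ± 30.9, 154 ± 22.6, 156 ± 22.5 and 139 ± 44.2 per Mb over the same ranges. Their mean density was thus higher at 5 to 10 kb and at 10 to 20 kb than at 2 to 5 kb. In shorter genes it also rose, from 84.1 ± 14.2 per Mb at 2 to 5 kb to 140 ± 15.3 at 5 to 10 kb. The deepest range in long genes was below the shallowest on 6 of 15 chromosomes, so between those ranges no direction stood out. The share of odd-length members was accordingly 40.6%, 51.6%, 54.3% and 55.9% over these ranges. Only 51 members lay over 50 kb from any coding gene end, at 147 per Mb, and 3 chromosomes had enough such interior for a value of their own.

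At equal distance from gene ends, much of the difference from shorter genes became small beside its spread. The odd-length share was higher in long genes by 10.3 ± 10.0 points at 2 to 5 kb (14 of 15 chromosomes). The difference was 8.90 ± 9.75 points at 5 to 10 kb (11 of 15) and 7.83 ± 15.7 at 10 to 20 kb (9 of 15). At 20 to 50 kb it was -5.08 ± 15.7 points, with long genes higher on 3 of 6 chromosomes. At 2 to 5 kb the odd-length density was 126 ± 30.9 per Mb in long genes and 84.1 ± 14.2 in shorter ones, and higher in long genes on 14 of 15 chromosomes. At 10 to 20 kb it was 156 ± 22.5 per Mb in long genes and 159 ± 21.3 in shorter ones, and higher in long genes on 6 of 15. The 250-bp density at 10 to 20 kb was 135 ± 63.8 per Mb in long genes and 176 ± 37.4 in shorter ones, and higher in long genes on 5 of 15. The total density differed by less than its spread in both directions. It was 325 ± 53.2 per Mb in long genes and 292 ± 17.1 in shorter ones at 2 to 5 kb, a difference of 32.8 ± 57.2 per Mb with long genes higher on 11 of 15. At 10 to 20 kb it was 290 ± 60.7 per Mb in long genes and 335 ± 32.3 in shorter ones, a difference of -44.4 ± 64.5 per Mb with long genes higher on 5 of 15.

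Against intergenic sequence the difference grew with distance instead. At 2 to 5 kb long-gene interiors held 325 ± 53.2 peaks per Mb and intergenic sequence 373 ± 46.6, and the long genes were higher on 1 of 15 chromosomes. At 10 to 20 kb the values were 290 ± 60.7 per Mb in long genes and 200 ± 49.4 in intergenic sequence, with long genes higher on 14 of 15. At 20 to 50 kb they were 250 ± 54.1 per Mb in long genes and 79.8 ± 39.9 in intergenic sequence, with long genes higher on 15 of 15, a difference of 170 ± 72.6 per Mb (SD, n = 15 chromosomes). The gap was widest for 250-bp peaks, which at that distance numbered 111 ± 45.7 per Mb in long genes and 11.2 ± 14.0 per Mb in intergenic sequence. The difference of 99.5 ± 45.6 per Mb was 61.2 ± 69.1 per Mb, within its spread, when only genes of 100 kb or more counted as long. Of the intergenic peaks at 20 to 50 kb, 86.7% were odd-length, against 55.9% of the members. Inside the long genes, the density at 20 to 50 kb was below that at 2 to 5 kb on 13 of 15 chromosomes, with a difference of -75.4 ± 82.6 per Mb. Whether intergenic sequence at such distances is as well mapped as gene interiors was not tested.

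**Figure D2:**
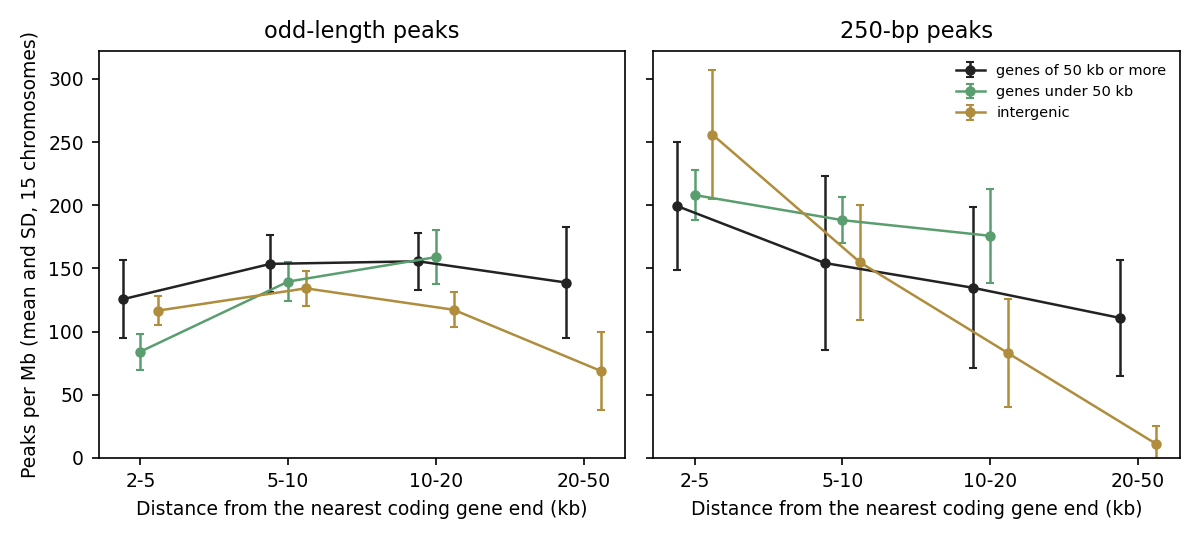
Peak density (vertical axis, peaks per Mb) by distance from the nearest protein-coding gene end (horizontal axis, kb) for odd-length peaks (left) and 250-bp peaks (right), inside genes of 50 kb or more (black), inside genes under 50 kb (green) and in intergenic sequence (yellow). Points are means and bars SDs over 15 chromosomes, cut at 0; at 20 to 50 kb the 250-bp density was 111 per Mb in long genes and 11.2 per Mb between genes, and shorter genes have no point there because only 6 chromosomes had enough such sequence.

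The total density was lower on the long side of the 50 kb threshold than just under it. Interiors of genes of 30 to 40 kb held 328 peaks per Mb, those of 40 to 50 kb held 351, those of 50 to 60 kb 297, those of 60 to 80 kb 280, those of 80 to 100 kb 305 and those of 100 kb or more 233. The 250-bp density over the same spans was 189, 198, 160, 128, 160 and 96.0 per Mb, while the odd-length density stayed between 137 and 152 per Mb. Genes of smaller span had lower odd-length densities. Interiors of genes of 10 to 20 kb held 301 peaks per Mb, with 102 odd-length and 199 of 250 bp. Those of 20 to 30 kb held 323, with 128 odd-length and 195 of 250 bp. The shortest gene inside the rule, LOC5511308 on chromosome 4, spans 50024 bp and held 28 members, of which 10 were odd-length. The longest gene outside it, LOC5518000 on chromosome 13, spans 49944 bp and held 9 peaks that met the other conditions, all odd-length. At the distance threshold, the member nearest a coding gene end lay 2000.5 bp away, on chromosome 14, and the nearest peak left out lay 2000 bp away, on chromosome 7. Chains of 14 peaks contributed 27 members, and chains of 15 peaks would have contributed 51.

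Members lay at a larger median distance from their nearest peak than the other classes, by less than the spread between chromosomes in 2 of 3 contrasts. The median distance to the nearest other peak, between starts, was 701 bp for members, 619 bp for peaks inside shorter genes, 621 bp for intergenic peaks and 490 bp for all other peaks. By chromosome it was 701 ± 98.8 bp for members and 623 ± 29.7 bp in shorter genes (SD, n = 15 chromosomes), and members had the larger value on 10 of 15. The difference was 77.3 ± 94.7 bp from shorter genes, 71.3 ± 109 bp from intergenic peaks and 205 ± 92.2 bp from all other peaks. The rule leaves out dense chains, which lengthens these distances for members, shorter genes and intergenic sequence. All other peaks still include the dense chains and the peaks near gene ends. The difference of 205 ± 92.2 bp is therefore partly set by the rule. The lengths differed in how they were arranged: the median distance from a 250-bp member to the next 250-bp peak was 600 bp, and from an odd-length member to the next odd-length peak 1522 bp. In shorter genes these medians were 570 and 1917 bp. Of the members, 286 (5.96%) had no other peak within 5000 bp, against 3.49% in shorter genes and 5.60% in intergenic sequence. The most isolated member, at bases 12673013 to 12673261 of chromosome 14 inside LOC116613001, lay 67.1 kb from the nearest peak. At the other extreme, 6 members shared the smallest distance of 151 bp. The member farthest from any coding gene end lay 76.5 kb away, at bases 14929265 to 14929514 of chromosome 2, inside LOC5521826.

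The long genes differed widely among themselves. The median gene held 15 members, with an interquartile range of 9 to 22 and a maximum of 84. Per 10 kb of interior the median was 2.53 members, the quartiles 1.74 and 3.63, and the maximum 13.2. The number of members followed span only loosely. Spearman's rho between span and members was 0.37 over the 286 genes, 0.44 for odd-length members and 0.13 for 250-bp members, as a description of genes that are not independent replicates.

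Most of the variation between genes lay in the 250-bp members. Their density per gene had a coefficient of variation of 127%, against 53.5% for odd-length members. The tenth of genes with the most 250-bp members (29 genes) held 39.5% of all of them, while the tenth with the most odd-length members held 24.6% of those. The densities of the lengths showed almost no relation over genes, with a Spearman's rho of -0.06 (286 genes that share 1 list). There were 33 genes with members but no 250-bp one, of which 8 had 10 or more members. The one gene with members but no odd-length one was LOC5515875 on chromosome 1, which had 11 members and is named because it was the only such gene. Among the 213 genes with at least 10 members, 56 had over 75% and 33 under 25% of odd-length members, and 124 lay between these.

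**Figure D3:**
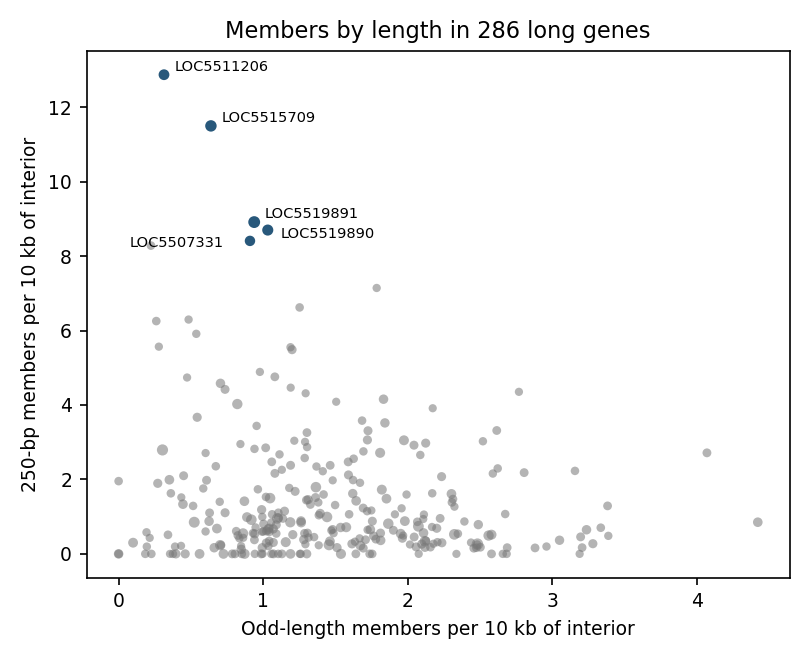
Density of odd-length members (horizontal axis) and 250-bp members (vertical axis) per 10 kb of interior in each of the 286 genes of 50 kb or more; point area grows with span. The 5 genes with the highest total density, in blue, had 8.41 to 12.9 members of 250 bp and 0.31 to 1.03 odd-length members per 10 kb.

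In the genes with the most members, most were 250 bp long, with 1 exception. The 10 leading genes had 42 to 84 members each. LOC5516654 and LOC5511206 tied for the last place with 42 members, and LOC5516654 was taken for its longer span. LOC5519891, at bases 10000051 to 10099579 of chromosome 6, had 84 members, of which 76 were 250 bp long. LOC5519890, at bases 10023077 to 10094910, lies wholly inside that span, and its 66 members (59 of them 250 bp long) are counted for both genes, since a peak's position does not tell them apart. LOC5515709, at bases 16299924 to 16384124 of chromosome 2, had 76 members, 72 of them 250 bp long, and 35 more of its peaks belonged to dense chains. When chains of 10 or more peaks were left out instead of 15, its count was 25, and when the ends of all annotated genes were avoided it was 50.

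LOC5509225 on chromosome 4 followed with 59 members in 126 kb, of which 49 were 250 bp long. LOC5521826 on chromosome 2 had 51 members, 46 of them 250 bp long, in a span of 171 kb. LOC5520842 on chromosome 7 had 49 members, LOC116618501 and LOC5512847 on chromosome 14 had 45 each, and LOC5516359 on chromosome 1 had 44. The count of LOC5516359 was 14 when the ends of all annotated genes were avoided. The exception was LOC5516654, at bases 3677976 to 3870656 of chromosome 14. It had the longest span of all genes, 193 kb, and 42 members, but 38 of them (90.5%) were odd-length.

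**Figure D4:**
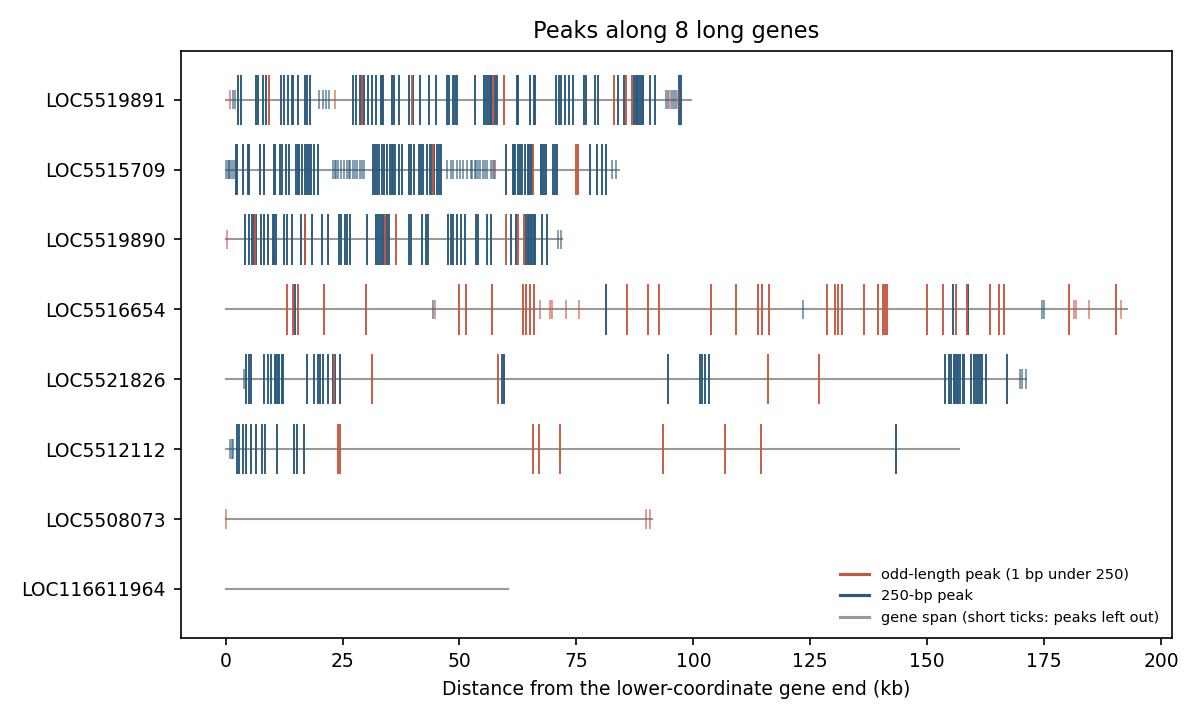
Peaks along 8 long genes, by distance from the lower-coordinate gene end (horizontal axis, kb): the 3 genes with the most members, the 3 longest and the 2 without members. Tall ticks are members, short pale ticks are peaks left out near coding gene ends or in dense chains, red for odd-length and blue for 250-bp peaks. LOC5516654 (42 members in 193 kb) is mostly red, with ticks along the whole span, whereas in LOC5521826 (51 members in 171 kb) blue ticks stand in groups; LOC5519890 lies inside LOC5519891 and shows the same peaks.

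The 2 longest genes thus carried similar numbers of members of different kinds. In LOC5521826 the median distance between starts of neighbouring members was 574 bp, and the longest distance without a peak was 35.3 kb, so its members stood in groups. In LOC5516654 the median distance was 2297 bp and the longest distance without a peak was 14.3 kb. The other 8 of the 10 longest genes spanned 136 to 157 kb and had 21 to 38 members each. Odd-length members prevailed in LOC5513895 on chromosome 14, with 31 of 38, in LOC116617962 on chromosome 9, with 28 of 38, and in LOC5502675 on chromosome 1, with 18 of 21. The lengths were more even in the other 5. Odd-length members made up 16 of 27 in LOC5503308 on chromosome 5, 15 of 28 in LOC116613873 on chromosome 8 and 12 of 24 in LOC5520309 on chromosome 1. They made up 14 of 34 in LOC5522255 on chromosome 4 and 8 of 21 in LOC5512112 on chromosome 3. In LOC116613873 all members lay outside a stretch of 81.1 kb without a peak, or 57.7% of its span.

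Per length of interior, the 5 most densely filled genes had spans of 53.0 to 99.5 kb. LOC5511206, at bases 5849919 to 5912482 of chromosome 5, had 42 members at 13.2 per 10 kb, and 41 of them were 250 bp long. It had a further 27 peaks in dense chains, and its interior was only 31.9 kb. The count was 26 with a distance of 5 kb from gene ends and 16 when the ends of all annotated genes were used. LOC5515709 had 12.1 members per 10 kb, LOC5519891 had 9.85 and LOC5519890 had 9.73. LOC5507331, at bases 3565070 to 3618053 of chromosome 6, had 41 members at 9.32 per 10 kb, of which 37 were 250 bp long.

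At the other end, 2 genes had no member. LOC5508073, at bases 16700823 to 16792024 of chromosome 5, had 3 peaks close to its ends and none over 89.8 kb in between. LOC116611964, at bases 11994200 to 12054502 of chromosome 14, had no peak at all in 60.3 kb. LOC116612999 and LOC116613001 on the same chromosome and LOC5519676 on chromosome 4 had 1 member each, and all 3 of these members were odd-length. In the median long gene the longest distance without a peak was 14.6 kb, or 22.6% of the span, and it exceeded 50% of the span in 22 genes.

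The annotation gives several transcripts to most long genes, and 250-bp members were denser in genes with many. In the 74 genes with 1 transcript the median density was 0.53 members of 250 bp per 10 kb (quartiles 0.20 and 1.37). It was 0.56 in the 50 genes with 2 transcripts, 0.88 in the 78 genes with 3 or 4, 1.21 in the 62 genes with 5 to 8, and 3.97 in the 22 genes with 9 to 23 (quartiles 1.09 and 5.30). The odd-length members showed no such order, with medians of 1.22, 1.44, 1.30, 1.38 and 1.25 per 10 kb. Spearman's rho with the number of transcripts over the 286 genes was 0.28 for 250-bp and 0.02 for odd-length density, given as a description. The groups overlapped: of the 22 genes with 9 or more transcripts, 11 had at least 4 members of 250 bp per 10 kb, as had 2 of the 74 with 1 transcript, but 5 of the 22 had under 1. Both LOC5519891 and LOC5519890 are among the 11, and their 66 shared members count for each of them. Among genes of 100 kb or more the order was not there, since the median of 4 genes with 9 or more transcripts was 0.10 per 10 kb below that of 7 genes with 1 (a difference of -0.10). With a distance of over 5 kb from gene ends, the difference was 1.93 per 10 kb, against 3.44 as given above. Annotated transcripts rest on RNA evidence, and how far they follow the expression of a gene was not tested.

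**Figure D5:**
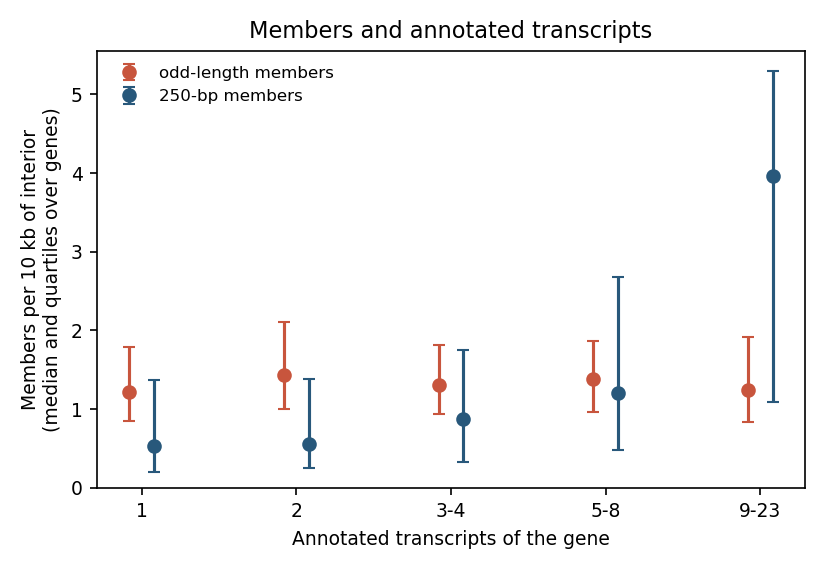
Members per 10 kb of interior (vertical axis, median with quartiles over genes) by the number of annotated transcripts of the gene (horizontal axis), for odd-length members (red) and 250-bp members (blue). Groups hold 74, 50, 78, 62 and 22 genes; the blue median is 0.53 in the first group and 3.97 in the last, and the red medians lie between 1.22 and 1.44.

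Other annotated genes lie inside the long ones or overlap them, and in pooled counts members were more frequent there. Of the members, 790 (16.5%) were centred in a further annotated gene, a class that made up 11.4% of the interior. Their density was 403 per Mb, against 263 per Mb where no other gene was annotated. This included 557 members in the span of a further protein-coding gene, at 393 per Mb, and 241 in the span of a long non-coding RNA (lncRNA) gene, at 515 per Mb. Of the 557, 165 lay in 2 long genes at once, 66 of them in LOC5519891 and LOC5519890. Of the members in lncRNA genes 23.2% were odd-length, against 54.3% where no other gene was annotated. Neither here nor at the lncRNA ends below was distance from coding gene ends held in ranges. Over all members, pooled density was 315 per Mb at 2 to 5 kb from such ends and 246 at 20 to 50 kb. The odd-length shares there were 40.6% and 55.9%. How much of the differences goes with distance was not tested.

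The ends of lncRNA genes were a further place of higher density. Within 500 bp of such an end there were 155 members in 268 kb of interior, or 579 per Mb, against 274 per Mb elsewhere. The ratio was 2.11, and the density near lncRNA ends was the higher one on 15 of 15 chromosomes, with 601 ± 247 per Mb near ends and 281 ± 44.2 per Mb elsewhere (SD, n = 15 chromosomes). Some of these directions rest on few members. Near such ends there were 23 members on chromosome 5, but 3 each on chromosomes 7 and 11 and 1 on chromosome 15. When only genes of 100 kb or more counted as long, the difference was 118 ± 410 per Mb, within its spread, instead of 305 ± 248 (pooled densities, SD over chromosomes). Transfer RNA genes stood at the other extreme. The long genes hold 1543 annotated tRNA genes, which made up 0.69% of the interior, but 10 members were centred in one (83.8 per Mb), and all 10 were odd-length. Such a gene is much shorter than a peak, so a centre outside it does not mean that the peak misses it.

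The shares of long genes with peaks at their own ends were close to those of shorter genes. A peak centre lay within 500 bp of both ends in 99 of 286 long genes (34.6%), of 1 end in 152 (53.1%) and of neither in 35 (12.2%). In shorter genes these shares were 34.1%, 52.2% and 13.8%. Long genes with no peak at either end had a median of 9 members, those with a peak at 1 end 15 and those with a peak at both ends 17. The median 250-bp density over genes was 0.32 per 10 kb with no end peak, 0.87 with 1 and 0.92 with both. The median odd-length density was 1.15, 1.31 and 1.44 per 10 kb.

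Members were divided almost evenly between an end that carried a peak and one that did not. In the 152 genes with a peak at a single end, 1310 of 2653 members (49.4%) lay on that end's side of the gene's midpoint and 1343 on the other side. The side with the end peak held more of the members in 70 genes and fewer in 67. Over all long genes, 47.9% of members lay on the side with the lower coordinates. The gene table used here has no strand column, so the ends were not told apart as starts and stops.

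Members were spread over all chromosomes. Chromosome 14 had the most, 533 in 33 long genes, followed by chromosome 5 with 504 in 25 genes, and chromosome 11 the fewest, 176 in 14 genes. A few pairs of long genes share sequence: 13 pairs overlapped, and 165 members lay in 2 long genes at once and were counted for both in the values per gene.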

How the data were processed

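The authors deposited 1 peak list for the whole series, whose only measurement is each peak's start and end in bp. It has no header, and its score and strand columns are unfilled. The submitters' processing notes name bcl2fastq, Cell Ranger ARC 2.0.1 and Cell Ranger 7.0.0. The peak caller, its threshold, the pooling of libraries and the genome build are not given in the sources used here. Starts were read as counted from 0 and are printed counted from 1.

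Of the 112728 peaks, 112673 lay on sequences that were matched to chromosomes 1 to 15 of jaNemVect1.1 in name order, and the others were not classed. Under this match 22.1% to 29.7% of peak centres per chromosome lay within 500 bp of a coding gene end, against 13.5% to 16.1% on the best other chromosome. Densities divide peak counts by the interior, in which chains were left out as well; ranges by chromosome need 50 kb of it. Work was done in Python 3.11.15 with pandas 2.3.3, numpy 2.4.6 and scipy 1.17.1, and the classing was tested on simulated data. No test was run.

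Genes were named by rule: the 10 with the most members, the 10 longest, and the 5 highest and 5 lowest per 10 kb among genes with 20 kb of interior, with ties broken by longer span. The members, this rule and the comparisons were chosen with earlier results of these data known. Planned lists of gene functions and GC content were not used here, since the gene table has neither products nor sequence.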

Additional observations from a re-analysis of the deposited data

How the results depend on the processing

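Each of 12 results was recomputed under 9 other settings of the rule; 4 of the results (the contrast with shorter genes in odd-length share, the 250-bp density far from ends, and the contrasts by transcripts and lncRNA ends) were added to this after seeing the data. Of 107 values, 98 kept their sign and moved by less than the SD over chromosomes (for members, by less than 1.5 times; for transcripts, by less than the SD over genes). Some of the 98 could not move, so that count overstates how far the results were probed. The longest peak-free distance depends on the minimum span only. The contrast at 20 to 50 kb cannot change with a distance of 1 or 5 kb from gene ends. A chain gap of 500 bp gave the same 4995 members as leaving out no chains. With a minimum span of 30 kb there were 12440 members, a median of 10 per gene and a median longest peak-free distance of 11.5 kb. With 100 kb there were 861 members at 233 per Mb, a median of 25 per gene and a peak-free distance of 24.9 kb, and the contrast by transcripts had the opposite sign (-0.10 per 10 kb). At over 5 kb from gene ends the median was 11 members per gene. The share of odd-length members ranged from 46.2% to 58.8%, and its difference from shorter genes from 10.4 to 20.3 points. The lowest difference, 10.4 ± 10.5 points at over 5 kb from gene ends, was within its spread. The highest, with a minimum span of 100 kb, was 20.3 ± 15.7 points. Member counts of the 25 named genes stayed within 1.5 times in 203 of 212 values. The contrast at lncRNA ends has no value where the ends of all annotated genes are avoided. No paired analysis was possible because the list does not separate libraries. Read depth is unknown, so a gene without members may hold regions open in few cells.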

Other observations

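Of the 5 long genes with the fewest members per 10 kb, 3 lie close together on chromosome 14, a grouping noticed after the values were seen. The stretch that holds them, bases 11994200 to 12716903, had 47 peaks in 723 kb (65.0 per Mb, against 375 per Mb on the whole chromosome), and 38 of the 47 were odd-length (1 bp under 250 bp). The bounds of the stretch are the outer ends of LOC116611964 and LOC116613001, which were picked for few members, so its low density is partly built in. It contains 27 protein-coding genes, 6 of them long. Of the long ones, LOC5496836 and LOC5499885, which overlap, had 14 and 23 members, LOC125559927 had 5, and the other 3 had 0 or 1. The longest distance without a peak inside the stretch was 223 kb, from base 12096369 to 12319818, and 8 protein-coding genes lie wholly within it. Of 306 windows of 250 kb that touch a long gene, the median held 107 peaks and only 2 held fewer than 10, both overlapping this stretch.

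The same stretch holds annotated genes of equal span. LOC5504149 and LOC125559775 both span 3621 bp, and LOC125559929 and LOC5504148 both span 10544 bp, in the same order along the chromosome. In all, 4 of the 27 protein-coding genes of 3 kb or more there (14.8%) had a partner of exactly equal span in the stretch. Over all chromosomes, 118 of 14666 such genes (0.805%) had one as near. Whether these are copies to which reads cannot be assigned singly was not tested.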
